A study of Nothobranchius furzeri with 20 samples.

Results

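This account concerns 36 of 26739 gene IDs whose expression was lower in the oldest than in the youngest skin of a short-lived fish. The members were chosen from the measured values themselves: each had a mean over the 20 libraries of 0.5 to 2000 CPM (counts scaled to a library total of 1000000), all 5 of its 14 weeks values below all 5 of its 5 weeks values, and 7 and 10 weeks values whose ranges overlapped. Because the 5 and 14 weeks values chose the members, their difference is given as a description and no test of it supports anything. The libraries came from total skin RNA of the turquoise killifish, Nothobranchius furzeri, in males of the GRZ strain sampled at 5, 7, 10 and 14 weeks of age, with 5 libraries at each age and no treatment or genetic change named in the labels. All 4 groups share strain, sex and tissue. Whether each library stands for a different fish is not stated in the labels. The p-values therefore rest on the spread among libraries, which may in part be technical.

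The turquoise killifish lives in seasonal ponds in Africa and is used to study vertebrate ageing, since GRZ fish mature and age within months. Fish skin holds a living epidermis of keratinocytes and mucous cells over a dermis of fibroblasts, collagen and scales, with pigment cells, immune cells, nerves and blood vessels, so RNA of whole skin mixes many cell types. Fewer cells of a type and less RNA per cell cannot be told apart in such bulk samples. The deposited tables name genes by ID only, and 0 of the 36 members matched the RefSeq gene table of this species (assembly NfurGRZ-RIMD1). No symbol, function or sequence is therefore given here, and the skin label was not checked against marker genes.

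Library totals ran from 21581757 to 35137022 counts. Replicate 3 of 7 weeks, replicate 4 of 10 weeks and replicates 3 and 4 of 14 weeks stood apart on the first principal component (48.1% of the variance). They had scores of 102.6 to 200.5 against −94.4 to 39.7 in the other 16 libraries. The component was taken over the 19192 IDs tested in edgeR, on log2 values scaled with the TMM factors described below. Of 18424 IDs in the CPM range, 66 had all 14 weeks values below all 5 weeks values (0.358%) and 399 had them above (2.17%). The 36 members are those of the 66 whose 7 and 10 weeks ranges overlapped. In the other 30, every 7 weeks library lay above every 10 weeks library. On this scale the median log2 difference between 14 and 5 weeks over all IDs in range was 0.19, above 0, while the median over the members was −0.86. Scaling with TMM factors, which correct for a few abundant genes taking up counts, changed the split to 143 lower and 255 higher. With these factors the median over all tested IDs was 0.02. The set of IDs and the small amount added before taking logs also differ there from those behind the 0.19. RLE factors gave 117 lower and 299 higher. By the same rule 97 IDs qualified on TMM-scaled values and 80 on RLE-scaled values. They included 21 and 15 of the 36 members, so which IDs qualify depends on the scaling.

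**Figure D1:**
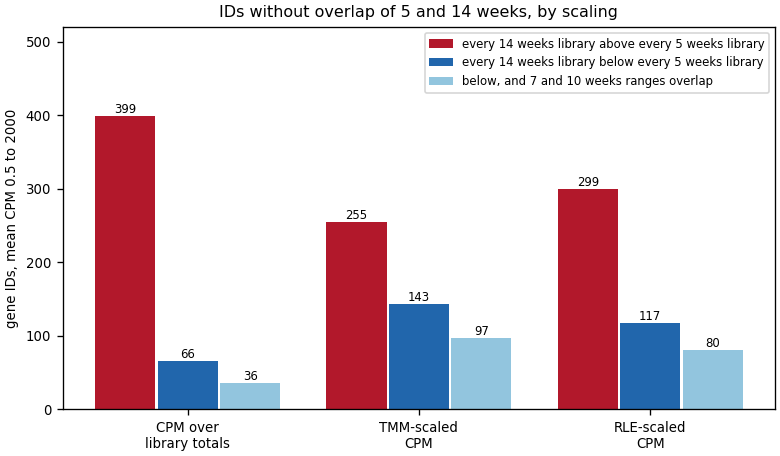
Bars count gene IDs with a mean of 0.5 to 2000 CPM under 3 scalings of the same counts: red, every 14 weeks library above every 5 weeks library; dark blue, every one below; light blue, below and with overlapping 7 and 10 weeks ranges. The light blue bars read 36, 97 and 80, and red exceeds dark blue under each scaling.

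The members ranged from 0.564 to 813 CPM in their mean over all libraries, with a median of 14.0 CPM. Their 5 weeks mean was 1.15 to 10.5 times their 14 weeks mean, with a median of 1.89 times, and in 16 of 36 the 14 weeks mean was at most 50% of the 5 weeks mean. The separation between the ages was narrow in most members. In 23 of 36 the lowest 5 weeks library was less than 1.1 times the highest 14 weeks library. Only Nfu_g_1_007603 had a ratio above 2, at 2.08, and the median ratio was 1.05.

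**Figure D2:**
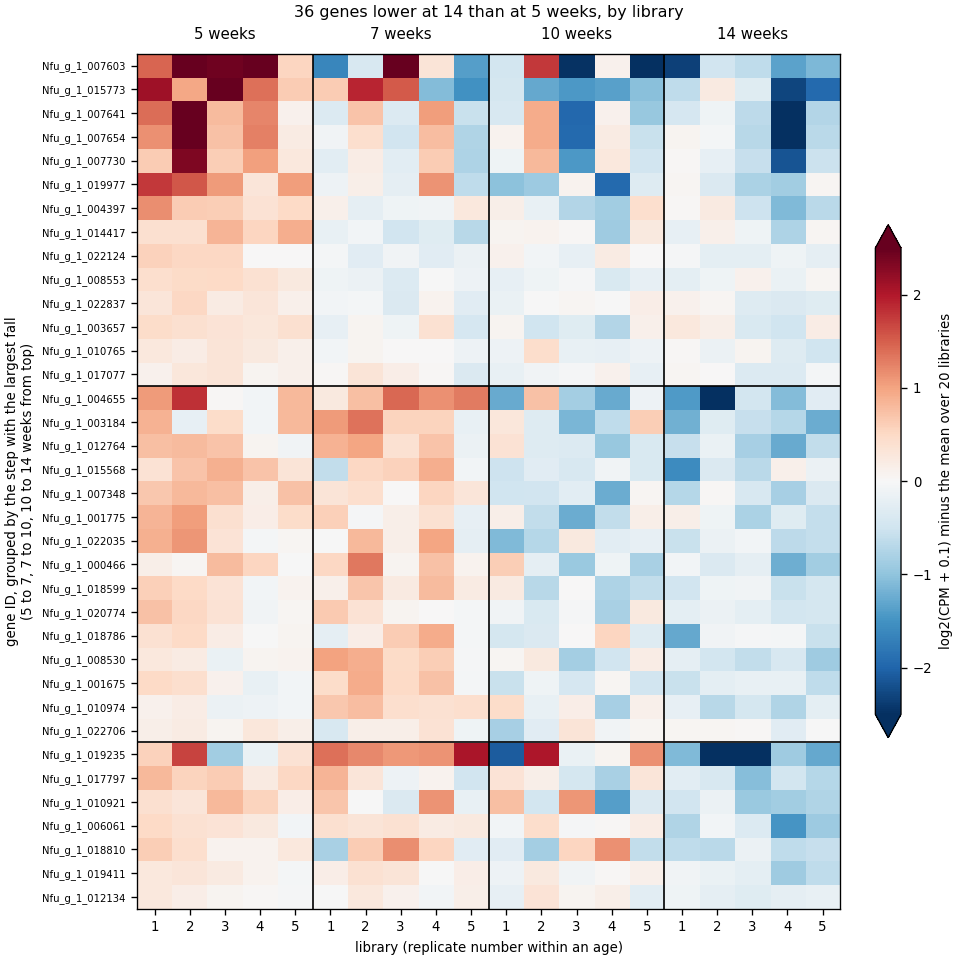
Each row is a member and each column a library, grouped by age from 5 weeks (left) to 14 weeks (right). Colour is log2(CPM + 0.1) minus the row's mean over 20 libraries, red above and blue below. Rows are grouped by the step with the largest fall, 14 members from 5 to 7 weeks, 15 from 7 to 10 weeks and 7 from 10 to 14 weeks.

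At the edge of the rule, Nfu_g_1_001675 was the member with the smallest separation. Its lowest 5 weeks library stood at 92.3 CPM and its highest 14 weeks library at 92.1 CPM, an order that turned under TMM scaling (a ratio of 0.989). Just outside lay Nfu_g_1_017787, chosen for its place next to that limit, with 6.29 CPM in its lowest 5 weeks library and 6.32 CPM in its highest 14 weeks library. Within 5% of the limit there were 16 members inside (a ratio under 1.05) and 13 IDs outside (a ratio over 0.95) that met the other conditions. A further 10 IDs met the conditions on ages but had a mean below 0.5 CPM, at most 0.381 CPM, and 0 IDs did so with a mean above 2000 CPM.

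The members had their largest decrease at different steps. On the scale of log2(CPM + 0.1), the largest of the 3 falls between neighbouring ages lay between 5 and 7 weeks in 14 members, between 7 and 10 weeks in 15 and between 10 and 14 weeks in 7. With TMM-scaled values these numbers were 16, 11 and 9. The means of 11 members decreased at every step (30.6%, against 1.61% of all IDs in range, a profile that the choice of members favours). The highest of the 4 age means was at 5 weeks in 23 members (63.9%, against 9.64% of IDs in range) and at 7 weeks in 13 (36.1%, against 29.0%). The lowest was at 14 weeks in 28 (77.8%, against 11.8%), at 10 weeks in 7 (19.4%, against 31.9%) and at 7 weeks in 1 (2.78%, against 26.3%). The choice of members bears on all of these shares.

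**Figure D3:**
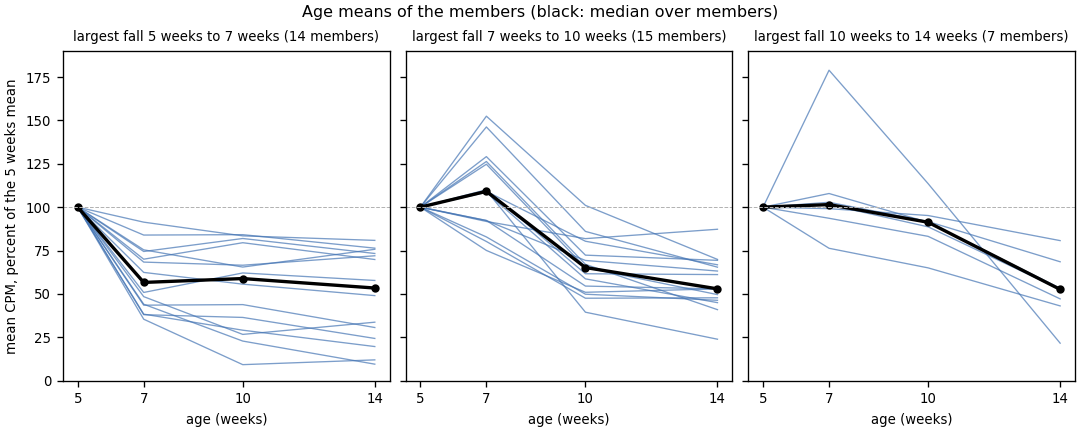
Thin lines give each member's mean CPM at 5, 7, 10 and 14 weeks as a percent of its 5 weeks mean, in 3 panels by the step with the largest fall. Black lines are medians over members. They drop to 56.6% at 7 weeks in the left panel, stay at 109% and 101% at 7 weeks in the others, and end at 53.4%, 52.9% and 52.6% at 14 weeks. The grouping by step, made on the same values, favours these shapes.

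In the 14 members with their largest fall from 5 to 7 weeks, the median level was 56.6% of the 5 weeks mean at 7 weeks, 58.9% at 10 weeks and 53.4% at 14 weeks. The grouping by step favours such a course, here and in the other classes. Nfu_g_1_007603 had the largest ratio between the ages. Its 5 weeks libraries held 6.63, 13.8, 13.1, 20.1 and 3.45 CPM and its 14 weeks libraries 0.384, 1.66, 1.49, 0.869 and 1.02 CPM, the latter from 13 to 43 counts. The libraries between were uneven, with 0.690, 1.77, 18.8, 2.96 and 0.841 CPM at 7 weeks and 1.68, 8.19, 0.339, 2.54 and 0.242 CPM at 10 weeks. Replicate 3 of 7 weeks thus stood as high as the 5 weeks libraries, and the other 4 stood below all of them. At 5 weeks the mean was 11.4 ± 6.51 CPM (SD, n = 5). It was 1.08 ± 0.509 CPM (SD, n = 5) in the oldest group.

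Nfu_g_1_015773 came next in this class. Its 5 weeks libraries held 32.4, 14.6, 112, 19.49 and 11.5 CPM and its 14 weeks libraries 4.76, 8.68, 6.02, 1.42 and 1.85 CPM. At 7 weeks it stood at 11.6, 28.1, 21.54, 3.46 and 2.52 CPM, so that replicates 1 to 3 overlapped the 5 weeks range and replicates 4 and 5 lay among the older libraries. All 5 libraries of 10 weeks, from 2.68 to 5.47 CPM, were below every 5 weeks library. From youngest to oldest the 4 means were 37.9 ± 41.9, 13.4 ± 11.2, 3.50 ± 1.15 and 4.54 ± 3.01 CPM (SD, n = 5 each). Replicate 3 held more than the other 5 weeks libraries together.

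The other 12 members of this class, the abundant Nfu_g_1_007730, Nfu_g_1_007654 and Nfu_g_1_007641 among them, stood at 14 weeks between 19.7% and 80.9% of their 5 weeks mean. The class held the more abundant members, with a median of 32.5 CPM in the mean over all libraries, against 5.09 CPM in the class with the largest fall from 7 to 10 weeks and 13.2 CPM in the last class.

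In the 15 members with their largest fall from 7 to 10 weeks, the median level stood at 109% of the 5 weeks mean at 7 weeks, 65.2% at 10 weeks and 52.9% at 14 weeks. Nfu_g_1_004655 held 2.28, 3.92, 1.05, 0.972 and 1.88 CPM at 5 weeks and 1.24, 1.81, 2.94, 2.39 and 2.69 CPM at 7 weeks. It held 0.374, 1.79, 0.524, 0.370 and 0.928 CPM at 10 weeks and 0.325, 0.0923, 0.726, 0.434 and 0.834 CPM at 14 weeks. The 5 and 7 weeks libraries overlapped, the 14 weeks libraries lay below both, and at 10 weeks replicate 2 alone stood in the range of the younger ages. Its 14 weeks values rested on 2 to 21 counts per library.

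Nfu_g_1_015568 held 1.74, 2.26, 2.55, 2.26 and 1.69 CPM at 5 weeks. At 10 weeks it held 0.899, 1.09, 0.987, 1.25 and 1.01 CPM, below every 5 weeks library, and at 14 weeks 0.384, 1.02, 0.795, 1.46 and 1.2 CPM. The 7 weeks libraries, at 0.836, 1.95, 2.04, 2.59 and 1.28 CPM, spanned both levels. Nfu_g_1_010974 is named, after its values were seen, as the only member whose 7 weeks values (0.988 to 1.31 CPM) all lay above its 5 weeks values (0.654 to 0.849 CPM). Its 10 weeks libraries ranged from 0.370 to 1.05 CPM and its 14 weeks libraries from 0.395 to 0.621 CPM.

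**Figure D4:**
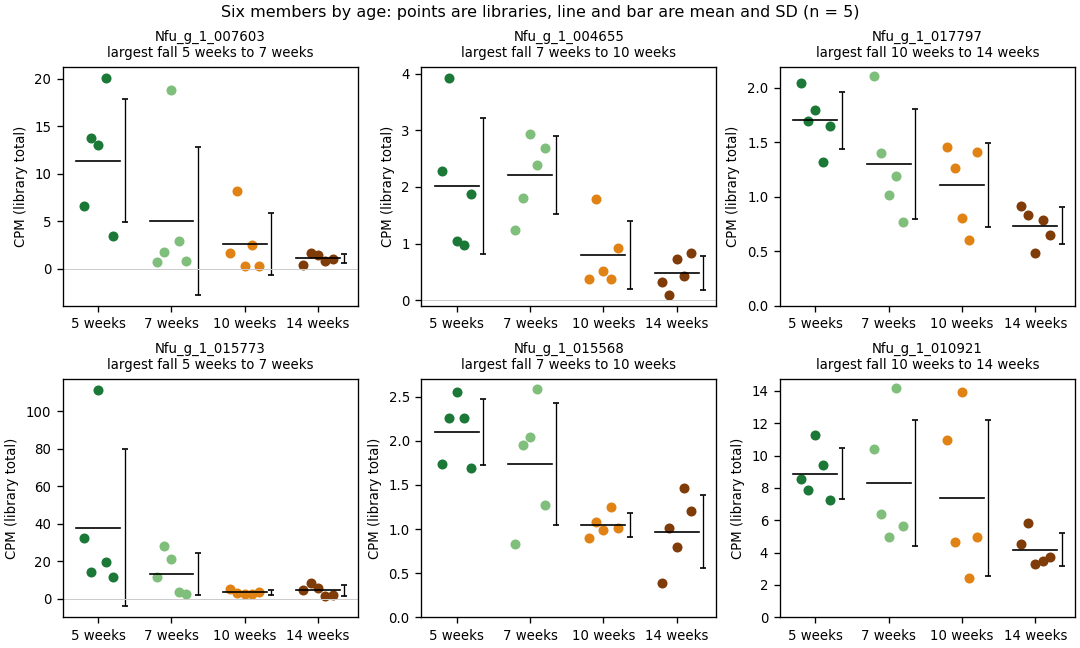
Points are the CPM of single libraries of 6 members at 5, 7, 10 and 14 weeks, with the mean as a line and the SD as a bar (n = 5 per age); columns group the members by the step with the largest fall. Every 14 weeks point lies below every 5 weeks point, as the choice of members requires, while 7 and 10 weeks points overlap each other.

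In the 7 members with their largest fall from 10 to 14 weeks, the median level was 101% of the 5 weeks mean at 7 weeks, 91.3% at 10 weeks and 52.6% at 14 weeks. Nfu_g_1_017797 held 2.05, 1.70, 1.8, 1.32 and 1.65 CPM at 5 weeks and 0.916, 0.831, 0.484, 0.790 and 0.649 CPM at 14 weeks. Its libraries of 7 weeks (0.774 to 2.11 CPM) and 10 weeks (0.601 to 1.46 CPM) overlapped those of both end ages. Nfu_g_1_010921 held 8.54, 7.88, 11.3, 9.41 and 7.25 CPM at 5 weeks and 4.55, 5.82, 3.32, 3.47 and 3.75 CPM at 14 weeks. Its 10 weeks libraries, at 10.9, 4.66, 13.9, 2.41 and 4.96 CPM, were spread more widely than those of either end age, with an SD of 4.84 CPM against 1.57 and 1.03 CPM (n = 5 each).

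Nfu_g_1_006061, also chosen after its values were seen, was the only member whose 14 weeks values all lay below its 10 weeks values. It held 22.2, 35.7, 29.5, 13.4 and 19.9 CPM at 14 weeks and 35.8, 50.4, 36.9, 37.9 and 42.4 CPM at 10 weeks. The gap was small: replicate 2 of 14 weeks stood just under replicate 1 of 10 weeks. Nfu_g_1_019235, likewise chosen after its values were seen, had the highest 7 weeks mean relative to 5 weeks, at 179%. It held 12.8, 27.8, 4.61, 7.59 and 11 CPM at 5 weeks and 22.2, 19.7, 18.1, 18.6 and 35.4 CPM at 7 weeks. It held 1.95, 35.1, 7.59, 8.93 and 18.8 CPM at 10 weeks and 3.90, 0.692, 1.21, 4.54 and 3.43 CPM at 14 weeks, so the 10 weeks libraries reached from the level of 14 weeks to that of 7 weeks.

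On TMM-scaled values Nfu_g_1_006061 no longer met the rule: its lowest 5 weeks library was 0.882 times its highest 14 weeks library.

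The 3 most abundant members, Nfu_g_1_007730, Nfu_g_1_007654 and Nfu_g_1_007641, lay close together in the deposited table. With Nfu_g_1_007603 they fell within 9 consecutive rows, while no other member was within 10 rows of another. They were singled out after this was seen. Their IDs do not give a position, and whether the order of rows follows the chromosomes is not given in the sources used here. Of the 5 other IDs in these rows, 4 had a mean under 0.5 CPM.

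Nfu_g_1_007730 had the highest mean of all members. It held 1026, 3303, 1011, 1334 and 786 CPM at 5 weeks and 545, 745, 545, 1026 and 386 CPM at 7 weeks. It held 608, 1159, 242, 791 and 471 CPM at 10 weeks and 671, 571, 443, 147 and 453 CPM at 14 weeks. Replicate 2 of 5 weeks stood far above all other libraries and replicate 4 of 14 weeks was the lowest of the 20. The 5 weeks mean was 1492 ± 1031 CPM (SD, n = 5), and the 14 weeks mean 457 ± 197 CPM (SD, n = 5).

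The other 2 had their highest and lowest values in the same libraries. Nfu_g_1_007654 held 1113, 3240, 839, 1205 and 580 CPM at 5 weeks and 528, 489, 313, 51.8 and 316 CPM at 14 weeks. Nfu_g_1_007641 held 531, 1557, 347, 467 and 217 CPM at 5 weeks and 150, 185, 128, 28.7 and 121 CPM at 14 weeks. Per length, the 5 weeks mean was 587 ± 405 RPKM (SD, n = 5) for Nfu_g_1_007730, 1710 ± 1299 RPKM (SD, n = 5) for Nfu_g_1_007654 and 705 ± 605 RPKM (SD, n = 5) for Nfu_g_1_007641. Within a library, the level per length of Nfu_g_1_007654 was 1.097 to 3.38 times that of Nfu_g_1_007730, above it in 20 of 20 libraries. That of Nfu_g_1_007641 was 0.560 to 1.49 times that of Nfu_g_1_007730, above it in 6 of 20. On TMM-scaled values Nfu_g_1_007654 no longer met the rule, with a ratio of 0.999 between its lowest 5 weeks and highest 14 weeks library.

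Over the 20 libraries, log2(CPM + 0.1) of these 3 members correlated with a Pearson's r of 0.977 to 0.986 (n = 20). After each age's mean was removed, r was still 0.970 to 0.978, so the likeness held within ages. Nfu_g_1_007603 correlated with them less closely, at 0.637 to 0.708, and at 0.370 to 0.459 after the age means were removed. The median over all 630 pairs of members was 0.466, and 0.152 after the age means were removed. Points share the library, its total and any reads that map to several genes, and how the authors counted such reads is not given. The 3 members did not keep a fixed ratio: Nfu_g_1_007641 amounted to 0.195 to 0.518 of Nfu_g_1_007730, highest in replicate 1 of 5 weeks and lowest in replicate 4 of 14 weeks. Between these rows, Nfu_g_1_007595 was no member, with 2.19 to 7.48 CPM at 5 weeks and 1.07 to 3.34 CPM at 14 weeks. Its r with the mean of the 3 was 0.856 (n = 20).

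**Figure D5:**
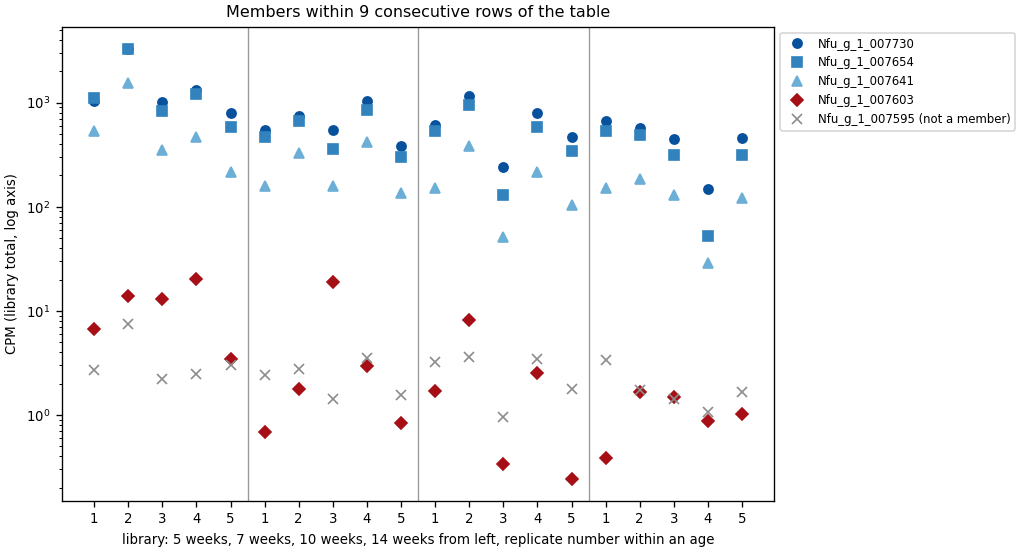
CPM on a log axis in each of the 20 libraries, 5 weeks at left to 14 weeks at right, for the 4 members that lie within 9 rows of the table and for Nfu_g_1_007595 between them. The 3 blue series move together, with their highest values in replicate 2 of 5 weeks (1557 to 3303 CPM) and their lowest in replicate 4 of 14 weeks (28.7 to 147 CPM).

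By age means, these 3 members made up most of the counts of the whole group. In single libraries they could be the smaller part, with 37.5% of the sum in replicate 3 of 10 weeks and 28.8% in replicate 4 of 14 weeks. From 5 to 14 weeks the members summed to 4560 ± 2693, 2309 ± 690, 2040 ± 788 and 1552 ± 485 CPM (SD, n = 5 each). The 3 held 72.8 ± 9.73% (SD, n = 5) of that sum at 5 weeks and 55.54 ± 15.4% at 14 weeks. Without them the sum of the other 33 was 1049 ± 158, 890 ± 103, 696 ± 41.0 and 632 ± 49.3 CPM from 5 to 14 weeks (SD, n = 5 each).

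Outside these 4, Nfu_g_1_019411 and Nfu_g_1_006061 had the highest correlation after the age means were removed, with an r of 0.818. Over the 20 libraries the r of these 2 members was 0.932. They do not lie near each other in the table. Both had their lowest value in replicate 4 of 14 weeks, at 11.7 and 13.4 CPM. That library had the highest score on the first principal component, at 200.5, and its part in this r was not tested. The pair was picked for its high r, on CPM by library total.

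edgeR and DESeq2 model counts and share information on the spread across genes. In edgeR's quasi-likelihood test with TMM factors across 19192 IDs, 0 of the 36 members passed an adjusted p of 0.05 for the difference between 14 and 5 weeks, against 2 of all IDs called lower (0.0104%) and 0 called higher. The unadjusted p was under 0.05 in 33 of 36 members and in 23.5% of all tested IDs, a contrast that the choice of members used. Adjusted p-values of the members ran from 0.0618 to 0.289. DESeq2 called 24 of 36 lower at 14 weeks, against 2.84% of its tested IDs, and 0 higher, against 8.91%. The log2 fold changes of all 36 were negative in edgeR, as chosen, from −3.65 to −0.35 with a median of −1.05.

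On the log2 scale with library totals, the median over the members was −0.17 between 7 and 5 weeks, where 24 of 36 were lower (37.4% of all IDs in range). It was −0.42 between 10 and 7 weeks, where 33 were lower (57.3% of all), and −0.21 between 14 and 10 weeks, where 27 were lower (33.7% of all). The medians over all IDs in range were 0.15, −0.13 and 0.20. On TMM-scaled values the members' medians were −0.31, −0.32 and −0.35, and those of all tested IDs 0.01, −0.03 and 0.06. edgeR's fits with TMM factors had 27, 27 and 32 members lower at these steps. The fits differ from the counts of 24, 33 and 27 in the way of estimating as well as in the scaling. Single libraries moved the TMM-scaled medians: the one between 10 and 7 weeks was −0.14 without replicate 4 of 7 weeks. The one between 14 and 10 weeks was −0.23 without replicate 2 of 10 weeks and −0.22 without replicate 4 of 14 weeks.

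By single members in edgeR, the log2 fold change between 14 and 5 weeks was −3.65 (SE 1.02; adjusted p = 0.0618) for Nfu_g_1_007603 and −3.17 (SE 0.79; adjusted p = 0.0618) for Nfu_g_1_015773. It was −2.21 (SE 0.54; adjusted p = 0.0618) for Nfu_g_1_004655 and −1.33 (SE 0.32; adjusted p = 0.0618) for Nfu_g_1_015568. Nfu_g_1_017797 had −1.33 (SE 0.38; adjusted p = 0.0618) and Nfu_g_1_010921 −1.22 (SE 0.45; adjusted p = 0.107). Of the abundant 3, Nfu_g_1_007730 had −1.77 (SE 0.53; adjusted p = 0.0634), Nfu_g_1_007654 −2.07 (SE 0.65; adjusted p = 0.0697) and Nfu_g_1_007641 −2.39 (SE 0.66; adjusted p = 0.0618). None of these edgeR values passed the threshold, while DESeq2's adjusted p was under 0.05 in 8 of the 9, from 0.000519 for Nfu_g_1_015773 to 0.0148 for Nfu_g_1_017797, and 0.0583 for Nfu_g_1_010921. Adjusted p-values repeat because the adjustment gives neighbouring ranks the same value.

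The comparisons with the middle ages share the 5 or the 14 weeks libraries with the rule and are given as counts beside the background. Between 7 and 5 weeks edgeR called 0 members, against 0.99% of tested IDs lower and 0.391% higher, and 10 of 36 had an unadjusted p under 0.05 (17.4% of all). DESeq2 called 3 members lower, against 3.24%, and 0 higher, against 2.9%. All 7 weeks values lay below all 5 weeks values in 6 members, against 1.78% of IDs in range, and above them in 1, against 4.4%. All 10 weeks values lay below all 5 weeks values in 8, against 2.11%, and above them in 0, against 4.61%.

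Between 10 and 7 weeks edgeR called 1 member lower, Nfu_g_1_001675, against 12.6% of all tested IDs, and 0 higher, against 10.5%. It held 144, 200, 147, 173 and 101 CPM at 7 weeks and 70.8, 96.4, 77.5, 108 and 74.9 CPM at 10 weeks. The ranges overlapped through replicate 5 of 7 weeks and replicate 4 of 10 weeks, and the log2 fold change was −0.74 (SE 0.21; adjusted p = 0.0142, edgeR). The rule removed IDs without such an overlap (12% of IDs in range with all 10 weeks values lower and 6.7% with all higher), which lowers this count by construction. DESeq2 called 2 members lower, against 13.7% of its tested IDs, and 0 higher, against 14%.

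Between 14 and 10 weeks edgeR called 0 members and 0 of all IDs in either direction. An unadjusted p under 0.05 was found in 7 of 36 members, against 18.7% of all tested IDs, and DESeq2 called 1 member lower, against 0.277%, and 0 higher, against 0.923%. All 14 weeks values lay below all 7 weeks values in 13 members, against 5.44% of IDs in range, and above them in 0, against 4.43%. They lay below all 10 weeks values in 1 member, against 0.364%, and above them in 0, against 0.304%. Over the 4 ages together edgeR's F-test called 17 of 36 members, against 26.1% of all tested IDs, and DESeq2 26, against 39.5%. That test includes the contrast that chose the members.

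On CPM by library total, the younger edge of the rule was set mostly by replicates 4 and 5 of 5 weeks. They held the lowest 5 weeks value in 14 and 15 of the 36 members, 29 in all, or 80.6% against 61.4% of all IDs in range. Both lay below replicates 1, 2 and 3 in 14 members (38.9%, against 25% of IDs in range) and above them in 0 (against 15.2%). The median deviation of the members from their own mean was 0.58, 0.51 and 0.38 on the log2 scale in replicates 1 to 3, and 0.19 and 0.16 in replicates 4 and 5. At 14 weeks the highest value lay in replicate 1 or 2 in 25 members (69.4%, against 27.3% of IDs in range). The median deviation there was −0.25, −0.15, −0.36, −0.68 and −0.57 in replicates 1 to 5. These shares and deviations are all on CPM by library total and depend on the scaling. With TMM factors, replicate 4 of 5 weeks held the lowest 5 weeks value only for Nfu_g_1_019977 (70.7 CPM) and Nfu_g_1_007348 (99.8 CPM). For Nfu_g_1_001675 it held 124 CPM and replicate 5 held 99.9 CPM. In some members it became the highest 5 weeks library, as for Nfu_g_1_012134 (108 CPM) and Nfu_g_1_022706 (44.0 CPM). The place of replicate 4 at the younger edge was thus largely a matter of scaling.

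Without replicates 4 and 5 of 5 weeks, 517 IDs met the rule, with all 36 members among them. Leaving out 5 weeks libraries can only loosen the condition on ages. The keeping of the members and a rise in number therefore follow by construction. In that setting edgeR called 10 of the 36 lower at 14 weeks, against 802 of all 19682 tested IDs. Without the 4 libraries that stood apart on the first principal component, 131 IDs met the rule, 33 of the members among them, and edgeR called 0 of the 36 and 0 of all 18982 tested IDs, a count that says nothing of the members. The part of these libraries in the members' values was not tested further.

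The members were 364 to 6516 bases long, with a median of 2128 bases against 2719 bases over all IDs in range, by the lengths recovered from the authors' RPKM values.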

How the data were processed

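RNA was prepared for sequencing with a TruSeq RNA kit (v2), per the labels' protocols. The authors deposited raw counts for each gene ID, with RPKM values in a second table. Per the submitters' processing notes the tools were featureCounts 1.4.6-p4, STAR 2.4.1d and CASAVA 1.8.2. The sources used here do not give the build, annotation, strand setting or treatment of shared reads. How reads of overlapping or near-identical genes were counted is therefore not known. The deposited RPKM table repeats library depths out of step with its columns, so it was used only to recover gene lengths, and RPKM values printed here were recomputed from the counts with each library's own total.

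Members were found on CPM by library total. The members and lists were chosen with earlier results of these data known. IDs were filtered with filterByExpr and fitted with edgeR 4.0.16 (R 4.3.3; TMM factors, quasi-likelihood, group means over 20 libraries, Benjamini-Hochberg adjustment at 0.05), first tested on simulated data. DESeq2 1.42.0, RLE factors, library totals, no filter and leaving out libraries were the alternatives. Named members are those with the largest separation in each class by step, the most abundant one, the one with the smallest separation, and the abundant one's neighbours in the table. Others are said to be chosen after their values were seen. Lists of marker and pathway genes were not tested, since 0 IDs matched a name.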

Additional observations from a re-analysis of the deposited data

Results flagged for a closer look

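In 7 of 52 groups of 5 libraries examined, 1 library lay far from the other 4 of its age by Dixon's criterion. Chance meets it in about 1 of 20 groups if values are normal and groups independent. CPM values need not be normal and these groups share libraries, so that rate is no yardstick for the counts given here. These groups are of 10 named members, the members' sums and their median deviation, and over all 36 members 13 of 144 groups met it. Nfu_g_1_007603 stood at 18.8 CPM in replicate 3 of 7 weeks and at 8.19 CPM in replicate 2 of 10 weeks. Nfu_g_1_015773 stood at 112 CPM in replicate 3 of 5 weeks. Replicate 2 of 5 weeks was far above the others for Nfu_g_1_007730 (3303 CPM), Nfu_g_1_007654 (3240 CPM) and Nfu_g_1_007641 (1557 CPM), and for the summed CPM of the members (9272 CPM), most of which those 3 members make up.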

How the results depend on the processing

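The number of IDs that met the rule was 36 as given, 97 on TMM-scaled and 80 on RLE-scaled values, and 66 with no condition on the middle ages. It was 517 without replicates 4 and 5 of 5 weeks and 131 without the 4 libraries far out on the first component, both alternatives chosen after seeing the data. Leaving out 1 library gave 32 to 208, with 208 without replicate 4 and 74 without replicate 5 of 5 weeks, and 78 without replicate 1 and 157 without replicate 2 of 14 weeks. Without a 5 or 14 weeks library the condition on ages can only loosen. Without a 7 or 10 weeks library the condition of overlap can only tighten. The direction of these changes was thus set by the rule. Members called lower at 14 than at 5 weeks numbered 0 in edgeR (2 of all IDs), 24 in DESeq2 (543 of all) and 10 without replicates 4 and 5 of 5 weeks (802 of all). Leaving out 1 library gave 0 to 24, with 15, 24 and 6 without replicates 1, 2 and 5 of 14 weeks, where 260, 548 and 181 of all IDs were called lower and 1238, 1593 and 1103 higher. Between 7 and 5 weeks the 0 calls (against 1.38% of all tested IDs) became 3 in DESeq2 (8.33%, against 6.14% of all). They became 2 without the 4 libraries (5.56%, against 2.54% of all). With 1 library left out the count was 0 to 1, the 1 without replicate 4 of 10 weeks (2.78%, against 1.42% of all). Between 10 and 7 weeks the 1 call (2.78%, against 23.1% of all tested IDs) became 5 with library totals only (13.9%, against 17.9%). It became 2 in DESeq2 and 2 without the 4 libraries (5.56% each, against 27.7% and 28.6% of all). With 1 library left out the count was 0 to 3, the 3 without replicate 1 of 10 weeks (8.33%, against 20.3%). The rule lowers these counts by construction. Between 14 and 10 weeks DESeq2 called 1 (2.78%, against 1.20% of all). With 1 library left out the edgeR count was 0 to 1, the 1 without replicate 1 of 14 weeks (2.78%, against 2.65% of all). Over the 4 ages the 17 calls (47.2%, against 26.1% of all tested IDs) became 26 in DESeq2 (72.2%, against 39.5%). They became 24 with library totals only, the scale that chose the members (66.7%, against 18.8%). They became 8 without the 4 libraries (22.2%, below the 26.02% of all). Leaving out 1 library gave 9 to 22. They were 22, or 61.1%, without replicate 1 or replicate 2 of 14 weeks (35.7% and 34.7% of all IDs). They were 9 without replicate 1 or replicate 3 of 5 weeks (18.3% and 17.8% of all IDs). They were 10 without replicate 2 of 5 weeks, replicate 4 of 7 weeks or replicate 3 of 14 weeks (18.8%, 16.2% and 21.1% of all). They were 11, or 30.6%, without replicate 1 of 7 weeks (18.1% of all) or replicate 5 of 14 weeks, close to the 27.8% of all IDs called there. The causes were not tested. The fitted 14 against 5 weeks fold changes of 10 named members stayed negative in 26 alternatives each, a direction the choice of members favours. On TMM-scaled values 21 of the 36 members still met the rule. In each of the others the order of the lowest 5 weeks and highest 14 weeks library turned. Among these were Nfu_g_1_001675, Nfu_g_1_007654, Nfu_g_1_006061 and Nfu_g_1_019411. No paired analysis was possible because the replicate numbers follow accession order and pair no libraries. Members with few counts, such as 2 in 1 library, are limited by depth.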
